A study of Homo sapiens with 12 samples.

Results

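The earliest sampled effect of raised miR-135b was examined in LNCaP cells, an established line from a human prostate carcinoma metastasis that responds to androgen. The comparison held the 4 arrays of 12 h out of 12 in the series, chosen by their titles: 2 arrays of cells given a miR-135b precursor and 2 of cells given a scrambled precursor as negative control. Both precursors were transfected at 20 nM under normal growth conditions, so all 4 cultures carried a transfected small RNA and no untransfected culture was measured here. Each group had 2 arrays, described by the submitters as biological repeats and numbered 1 and 2. The other 8 arrays, taken at 24 and 36 h with the same 2 precursors and numbering, were used for the spread of each gene and to set the 12 h values beside later ones. The model is 1 cell line with a transiently transfected precursor and not the endogenous microRNA.

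A microRNA is cut from a hairpin precursor by DROSHA and DICER1, is loaded into an Argonaute protein and guides it to messenger RNAs, mostly through pairing of its seed with sites in the 3' untranslated region. Bound messages are translated less and are often degraded, so that direct targets can be lower on an expression array within hours, while changes that pass through a lost protein come later. In prostate and other epithelial cells members of the miR-135 family have been studied as regulators of growth, oxygen sensing and steroid receptor signalling.

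The sequences of the transfected microRNA are shown because its seed is what sets the candidate target messages. The mature sequences are those of RefSeq on GRCh38.p14, written 5' to 3', with the seed (bases 2 to 8) in capitals. The first lies at chr1:205448361-205448383 on the minus strand, the second at chr3:52294270-52294292 on the minus strand, and the third, the opposite arm of the miR-135b hairpin, at chr1:205448323-205448344 on the minus strand.
hsa-miR-135b-5p: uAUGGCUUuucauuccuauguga
hsa-miR-135a-5p: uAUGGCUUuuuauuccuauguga
hsa-miR-135b-3p: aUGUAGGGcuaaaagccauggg
Among the 2545 mature human entries of the table, 2 carried the seed AUGGCUU, miR-135b-5p and miR-135a-5p. These sequences are equal at 22 of 23 positions and differ by C11U, the miR-135b base first and positions counted from the 5' end. A message that pairs with the whole seed holds AAGCCAU. The MIR135B hairpin, 97 bases at chr1:205448302-205448398 on the minus strand, is shown with its 5p and 3p arms in capitals, since a precursor can release either.
MIR135B hairpin: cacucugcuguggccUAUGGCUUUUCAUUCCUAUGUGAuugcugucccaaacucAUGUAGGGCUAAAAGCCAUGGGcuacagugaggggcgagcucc
No transcript sequences were used here, so which of the genes below hold a seed match was not examined.

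On the 4 arrays between 16861 and 17436 of 47323 probes were detected (detection p under 0.01), or 35.6% to 36.8%. The probe named MIR135B was detected on 0 of these 4 arrays, and the arrays read messenger RNA, so the transfection cannot be checked from them. Arrays of the same repeat number, treated and control, correlated at r = 0.9915 and 0.9923 over the kept probes. Arrays of the same treatment correlated at 0.9892 for miR-135b and 0.9877 for control. The median SD between repeats was 0.12 in miR-135b cells and 0.14 in control on the log2 scale. All 10 prostate luminal markers with a named probe, among them KLK3, KLK2, KRT8, KRT18 and HOXB13, were detected on all 4 arrays. Of the 5 basal markers with a probe, LAMB3 alone was detected on any array of 12 h. COL1A1, ACTA2, TAGLN and FBLN1 of 9 fibroblast markers, CD68 and CD14 of 5 leukocyte markers and ENO2 of 6 neuroendocrine markers were detected on at least 1 array. The summed signal of the measured luminal markers was 9424 and 10640 in miR-135b cells and 11010 and 10840 in control.

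Of 11238 genes tested at 12 h, 3 fell and 1 rose in miR-135b cells, which is 0.0267% and 0.0089% of genes (limma, adjusted p under 0.05). CPLX1, SCML2 and FOXN3 fell and C12orf76 rose, each by about 2-fold or more. With treated and control arrays paired by repeat number, PPP1R12B fell as well, making 4 falls, or 0.0356% of genes. The arrays read RNA of whole cultures, so fewer cells with a transcript and less of it per cell cannot be told apart. At an unadjusted p under 0.05 in limma without the pairing there were 559 genes, or 4.97%, with 309 lower (2.75%) and 250 higher (2.22%). With the pairing 1287 of the 11238 genes were under that limit.

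CPLX1 encodes complexin 1, a small protein that clamps and primes the SNARE complex in vesicle fusion, and it belongs to the genes reported elsewhere as targets of miR-135. Its normalised log2 signal was 5.61 and 5.67 in miR-135b cells, repeats 1 and 2, against 7.41 and 7.30 in control. Both treated arrays lay well below both controls, and the probe was detected on 1 of the 2 treated arrays. The log2 fold change was -1.72 ± 0.21 (SE, adjusted p = 0.0374), a value that depends on signal near background.

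SCML2 encodes a polycomb group protein that binds repressive chromatin complexes. Its log2 signal was 7.07 and 7.39 in miR-135b cells and 8.51 and 8.46 in control. The controls were close together and both treated arrays lay more than 1 log2 unit below them. The log2 fold change was -1.26 ± 0.16 (adjusted p = 0.0423). SCML1, a related gene, was lower without passing the test. It read 8.73 and 8.78 against 9.37 and 9.55, so its groups did not overlap either, and its log2 fold change was -0.71 ± 0.15 (adjusted p = 0.402). The other kept probe of SCML1 read -0.53 ± 0.39.

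FOXN3 encodes a forkhead transcription factor that acts as a repressor. Its log2 signal was 8.96 and 9.01 in miR-135b cells and 10.05 and 10.01 in control, with repeats closer together than for the other genes called. The log2 fold change was -1.04 ± 0.12 (adjusted p = 0.0374). FOXN2, a relative of FOXN3, read 8.35 and 8.47 against 8.78 and 9.02 and did not pass (log2 fold change -0.49 ± 0.16, adjusted p = 0.883).

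C12orf76, an open reading frame of little-known function, was the gene that rose. Its log2 signal was 9.29 and 9.48 in miR-135b cells against 8.31 and 8.39 in control, and the log2 fold change was 1.04 ± 0.12 (adjusted p = 0.0374). A second kept probe of C12orf76 read 0.91 ± 0.12. PPP1R12B, which encodes a regulatory subunit of myosin phosphatase, read 5.12 and 5.67 in miR-135b cells against 6.47 and 7.10 in control. Repeat 2 was higher than repeat 1 in both treatments, and the differences within repeats were -1.36 and -1.44. Its log2 fold change of -1.40 passed with the pairing (SE 0.12, adjusted p = 0.0483) and not without it (SE 0.30, adjusted p = 0.402). The PPP1R12B probe was detected on 1 of 2 treated arrays.

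These calls rest on the spread shared with the later times and on both repeats of 12 h. No gene passed in limma from the 4 arrays of 12 h alone (567 genes at an unadjusted p under 0.05), without any 1 of those arrays (407 to 723 genes) or with median scaling in place of quantile normalization (377 genes), while the fold changes of the 4 genes kept their sign in each.

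A wider view was taken of 124 genes, 1.1% of those tested, with an unadjusted p under 0.01, groups that did not overlap and detection on both arrays of the brighter group. These criteria use the 12 h values, so their 12 h differences are a description. They held 71 lower (0.632%) and 53 higher (0.472%) genes, of which the 15 lowest and 10 highest by fold change are named. Among the lower ones were CPLX1, PPP1R12B, SCML2 and FOXN3, described above.

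KCNMA1 encodes the pore of the large-conductance calcium-activated potassium channel. It read 7.38 and 7.98 in miR-135b cells against 8.52 and 9.04 in control, with both groups higher in repeat 2 and a difference of -1.14 and -1.06 within repeats. ZNF385B, a zinc finger gene, read 8.63 and 8.78 against 9.94 and 9.65 (log2 fold change -1.09 ± 0.15, adjusted p = 0.0653). Its other kept probe read -0.93 ± 0.17. MRPL16, which encodes a protein of the large mitochondrial ribosomal subunit, read 10.19 and 10.11 against 10.98 and 11.04 (log2 fold change -0.86 ± 0.12, adjusted p = 0.0653). In both genes the repeats of a treatment differed by far less than the treatments.

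APTX encodes aprataxin, which removes AMP from abortive DNA ligation ends. It read 9.52 and 9.77 against 10.46 and 10.65, and its 2 kept probes gave -0.91 ± 0.14 and -0.92 ± 0.13. ESRRA, an orphan nuclear receptor that drives mitochondrial genes, read 9.07 and 9.28 against 10.06 and 10.08. PTER, a phosphotriesterase-related gene, read 6.52 and 6.47 against 7.36 and 7.35. None of these passed the test at 12 h. The long noncoding RNA LINC00294 read 7.43 and 7.35 against 8.33 and 8.11. ARC, an immediate early gene of neurons, read 6.12 and 6.17 against 7.37 and 6.79, where the controls differed from each other by nearly as much as the nearer control from the treated arrays. KIAA1549 was detected on both control arrays and on neither treated array, and was at least 1.47-fold lower (adjusted p = 0.282). The lowest 15 ended with NR3C2 and HIF1AN, given with the reported targets.

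Among the 10 higher genes, LIAT1, whose product is a substrate-binding partner of an arginyltransferase, read 9.94 and 9.84 in miR-135b cells against 9.05 and 8.85 in control (log2 fold change 0.94 ± 0.14, adjusted p = 0.0818). Its other kept probe read 0.60 ± 0.14. SPOPL, an adaptor of the CUL3 ubiquitin ligase, read 6.39 and 6.44 against 5.31 and 5.34, was detected on neither control array and was at least 1.75-fold higher (adjusted p = 0.0653). C2orf15 read 7.47 and 7.53 against 6.53 and 6.49, with tight repeats in both groups. ERLIN1, which encodes an endoplasmic reticulum membrane protein, read 6.61 and 6.93 against 5.91 and 6.03. MORN4 read 7.32 and 7.33 against 6.76 and 6.54, and the zinc finger gene ZNF398 read 7.19 and 7.38 against 6.74 and 6.46, although its other kept probe, detected on 2 of 12 arrays, read -0.03. The remaining 3 were near background in control. The transglutaminase gene TGM1 was at least 1.39-fold higher (adjusted p = 0.679), MAGEA9B, which has a near-identical copy in the genome, at least 1.30-fold (adjusted p = 0.726) and the small nucleolar RNA gene SNORD73A at least 1.11-fold (adjusted p = 0.842). The other 56 lower genes had log2 fold changes of -0.77 to -0.39 and the other 43 higher genes of 0.38 to 0.66.

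**Figure D1:**
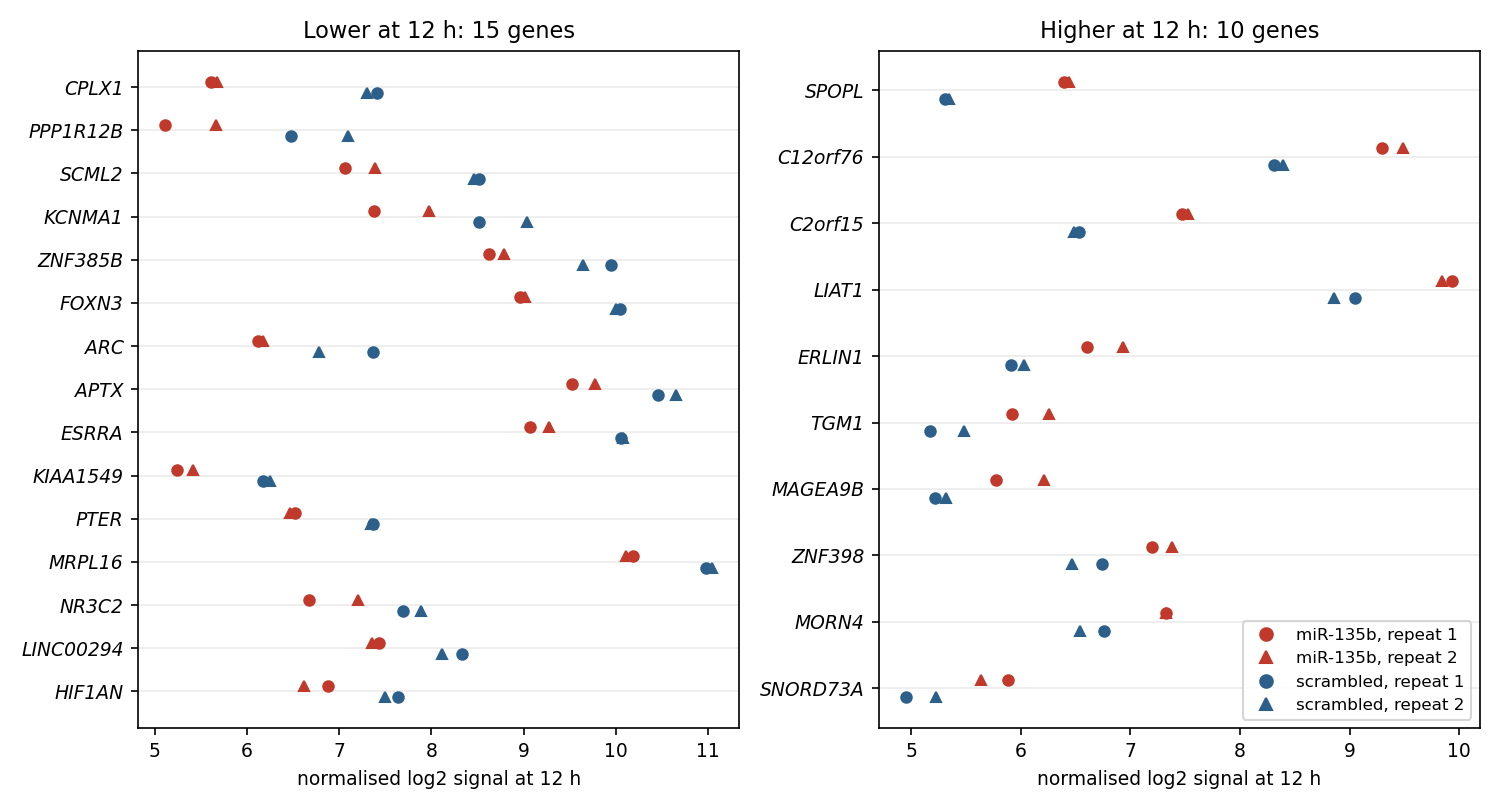
Normalised log2 signal on each of the 4 arrays of 12 h (x axis) for the 15 lower and the 10 higher genes chosen by the rule in the text, with red for miR-135b and blue for scrambled precursor, circles for repeat 1 and triangles for repeat 2. The treated arrays of CPLX1 sit at 5.61 and 5.67 and its controls at 7.41 and 7.30; for every gene drawn both red points lie on one side of both blue points, which the rule required.

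Lower genes outnumbered higher ones when both repeats had to differ. In both repeats 87 genes, or 0.774%, were lower by more than 0.5 on the log2 scale and 45, or 0.4%, higher by more than 0.5. At a limit of 1 log2 unit 4 genes were lower, CPLX1, SCML2, PPP1R12B and KCNMA1, and 1 was higher, SPOPL, for which the measured difference is taken against undetected controls and only the bound of 1.75-fold holds. At 24 h the same count at 0.5 was 218 lower (1.94%) and 202 higher (1.8%), and at 36 h 314 lower (2.79%) and 262 higher (2.33%). The excess of lower genes at 12 h was present in each of the 7 other settings tried, with 28 lower and 6 higher on the authors' processed values and 87 lower and 36 higher with median scaling. Whether the balance differs between times was not tested.

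The same genes were then followed on the 8 arrays of 24 and 36 h, each time against its own control arrays. Of the 71 lower genes 55 fell in the mean of the 2 later times, against 2.97% of all genes, and of the 53 higher genes 27 rose, against 2.3%. In a fit of the 8 later arrays alone, which does not take the spread from the 12 h arrays, the counts were 49 of 71, against 1.98% of all genes, and 24 of 53, against 1.56%. The limma p under 0.01 that chose these genes took its spread from all 12 arrays, which favoured genes of small later spread. The shares in this paragraph are therefore a description and no independent check. Whether the lower and the higher genes differ in this share was not tested. Of the 15 named lower genes 7 fell at 24 h, against 0.489% of genes, and 12 at 36 h, against 0.89%. With the pairing 12 fell at 24 h, against 1.54% of genes, and 12 at 36 h, against 3.14%. Of the 10 named higher genes 3 rose at 24 h, against 0.32%, and 3 at 36 h, against 0.872%, with the same counts under the pairing, against 1.17% and 2.57%. In the mean of the later times the pairing gave 59 of 71 falls, against 6.67% of genes, and 31 of 53 rises, against 5.89%.

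The genes called at 12 h were then set beside their later values. SCML2 read -1.26 at 12 h, -1.36 at 24 h and -1.64 at 36 h, and FOXN3 -1.04, -1.18 and -1.09. From 12 to 36 h the effect changed by -0.38 for SCML2 (95% interval -0.88 to 0.12) and -0.05 for FOXN3 (-0.44 to 0.34). CPLX1 was detected on neither treated array of 24 or 36 h, so its later level is only bounded, at least 2.93-fold lower at 24 h (adjusted p = 0.00911) and at least 2.86-fold lower at 36 h (adjusted p = 0.0042), and is not compared with 12 h. C12orf76 read 1.04, 1.48 and 1.54, with a difference of 0.50 between 36 and 12 h (95% interval 0.12 to 0.87). These intervals are unadjusted.

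Some of the 25 genes were apart at 12 h and had smaller values later. ZNF398 read 0.68 at 12 h, -0.16 at 24 h and 0.02 at 36 h, and ARC -0.93, -0.48 and -0.30. KIAA1549, at least 1.47-fold lower at 12 h, read 0.25 at 24 h, detected on 1 treated and 1 control array, and -0.11 at 36 h. TGM1, at least 1.39-fold higher at 12 h, read 0.05 at 24 h and 0.04 at 36 h. None of these 4 genes passed the test at any of the 3 times. MAGEA9B read -0.24 at 24 h, detected on 1 treated and 1 control array, and was detected on no array of 36 h. SNORD73A was detected on no array of 24 h and read 0.17 at 36 h, detected on 2 treated arrays and 1 control array.

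The question was also turned round. In the mean of the 24 and 36 h effects 334 genes fell, and both treated arrays of 12 h lay below both controls for 220 of them, or 65.9%, against 17.6% of all genes. Of the 259 genes that rose, 156, or 60.2%, already lay above both controls at 12 h, against 15.4% of all genes. The opposite order at 12 h was seen for 2.99% of the later falls and 3.09% of the later rises. The median 12 h effect was -0.27 among the later falls, whose median was -0.58 at 24 h and -0.63 at 36 h, and 0.23 among the later rises, whose medians were 0.56 and 0.67. The 12 h value exceeded 50% of the mean later effect for 144 of the 334 falls and 85 of the 259 rises, a minority of each. With later genes chosen from the 8 arrays of 24 and 36 h alone, the shares were 64.9% of 222 falls and 62.3% of 175 rises. With the pairing, which called more genes later, they were 50.0% and 38.5%.

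**Figure D2:**
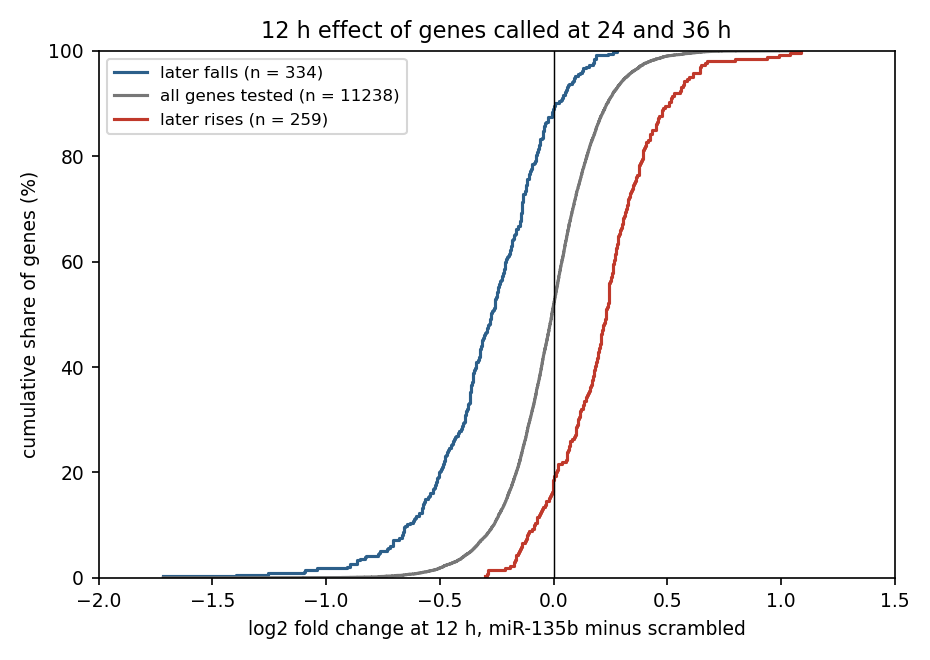
Cumulative share of genes (y axis, percent) by their log2 fold change at 12 h (x axis) for the 334 genes that fell and the 259 that rose in the mean of 24 and 36 h, with all 11238 genes tested in grey. The blue line of later falls lies left of the grey line, with 89.2% of its genes below 0, and the red line of later rises lies right of it.

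Large later effects were of differing size at 12 h. Of the 8 largest later falls, CPLX1, SCML2, PPP1R12B, KCNMA1, ZNF385B and APTX were among the 15 lowest genes at 12 h. KCNS3, a modifier subunit of potassium channels, read -0.58 ± 0.21 at 12 h and -1.27 and -1.38 later. AKR1C2, a steroid-reducing enzyme gene whose family members share much sequence, read 8.46 and 8.39 against 8.34 and 8.66 at 12 h, so the groups overlapped. Its log2 fold change was -0.08 ± 0.27 at that time, then -0.79 and -1.68.

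Of the 8 largest later rises, C12orf76 and LIAT1 were among the 10 highest genes at 12 h, and GGACT, an enzyme of crosslinked peptide breakdown, read 0.65 ± 0.20 before reaching 1.57 and 1.26. RSPH1, a radial spoke gene of motile cilia, read 6.12 and 6.31 against 6.09 and 6.06 at 12 h. Its log2 fold change was 0.14 ± 0.19 at 12 h, 1.46 at 24 h and 2.05 at 36 h. The actin gene ACTA2 went from 0.32 ± 0.19 to 1.26 and 1.84, the small GTPase gene RAB36 from 0.48 ± 0.19 to 1.75 and 1.86 and the basal body gene BBOF1 from 0.42 ± 0.14 to 1.32 and 1.70. DRC3, of the dynein regulatory complex, was detected on 1 treated and 0 control arrays at 12 h and on 2 treated and 0 control arrays at 36 h.

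The difference between the effects of 2 times was tested for every gene. In limma 0 genes passed for 24 h minus 12 h and 0 for 36 h minus 12 h, without or with the pairing, while 418 genes (3.72%) and 606 genes (5.39%) had an unadjusted p under 0.05. For RSPH1 the difference between 36 and 12 h was 1.91 ± 0.27 (adjusted p = 0.309), for BBOF1 1.28 ± 0.19 (adjusted p = 0.309), for ACTA2 1.52 ± 0.26 (adjusted p = 0.328) and for AKR1C2 -1.60 ± 0.38 (adjusted p = 0.803). No gene can therefore be called late or early by this test.

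**Figure D3:**
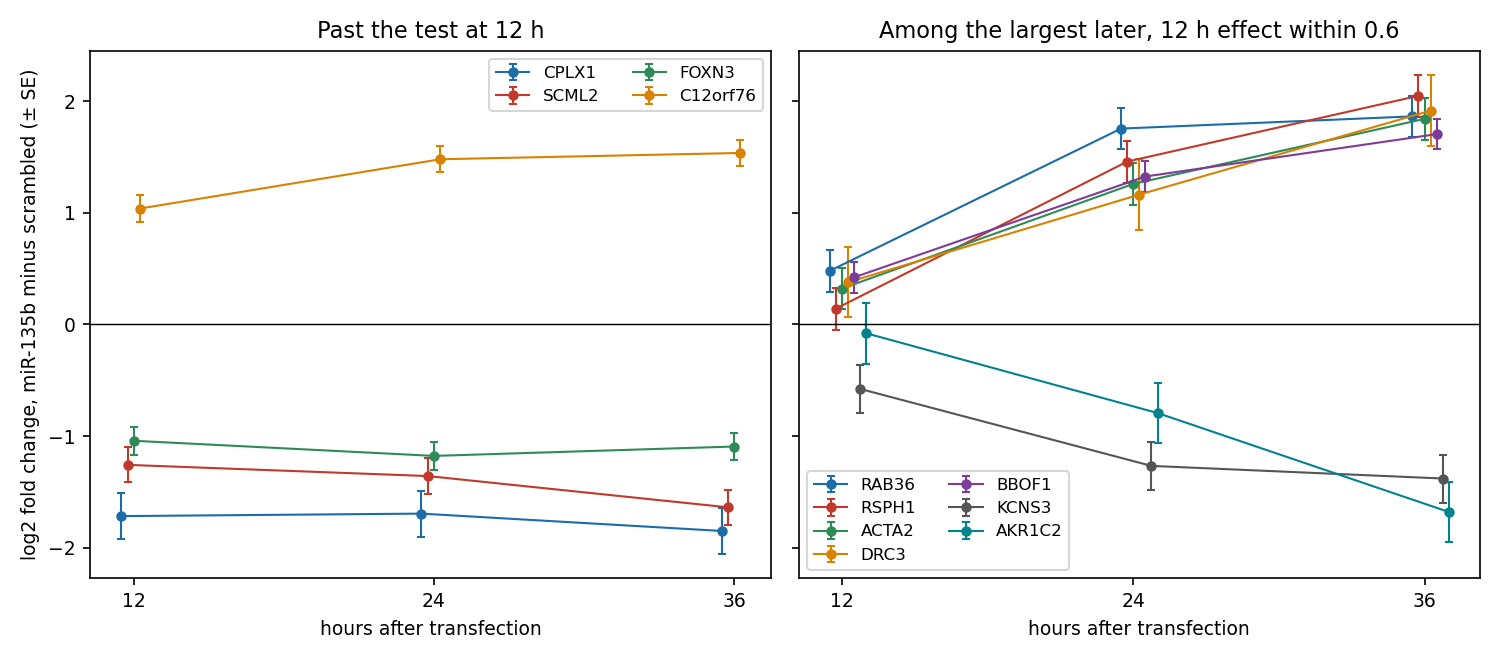
Log2 fold change of miR-135b against scrambled precursor (y axis, bars are SE, 2 arrays per group) at 12, 24 and 36 h (x axis) for the 4 genes past the test at 12 h (left) and for 7 genes among the largest later effects whose 12 h value lay within 0.6 of 0 (right). FOXN3 reads -1.04 and -1.09 at the first and last time, while RSPH1 goes from 0.14 to 2.05 and AKR1C2 from -0.08 to -1.68; the later points of CPLX1, and all points of DRC3, are set against a group detected on no array.

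Messages reported elsewhere as miR-135 targets were read as a list, the one that bears most on an early time point. Of 22 such genes 20 were measured, and ESR1 and APC were detected on none of the 12 arrays. CPLX1 fell and the other 19 did not pass. The members had a median of -0.32 at 12 h, against -0.01 over all genes, with -0.34 in repeat 1 and -0.25 in repeat 2. Both repeats were below control for 15 of 20, against 31.1% of all genes, and above it for 1, ROCK2, against 28.3%. The groups did not overlap for 10 members, all of them lower, against 17.6% of all genes. The list was drawn up with results of these arrays known, so these counts are a description and no independent evidence of direction.

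After CPLX1, the lowest members were the nuclear receptor gene NR3C2, the oxygen sensor gene HIF1AN and the phosphatase gene PHLPP2. NR3C2 encodes the mineralocorticoid receptor and read 6.67 and 7.21 in miR-135b cells against 7.69 and 7.88 in control (log2 fold change -0.85 ± 0.18, adjusted p = 0.402). Its other kept probe read -0.03 ± 0.23, so the probes disagree. HIF1AN encodes the asparagine hydroxylase that blocks coactivator binding by HIF1A. It read 6.88 and 6.62 against 7.64 and 7.50, lower in both repeats (log2 fold change -0.82 ± 0.21, adjusted p = 0.615). With the pairing its SE was 0.10 and its adjusted p 0.0844. PHLPP2 encodes a phosphatase that removes an activating phosphate from AKT and read 7.34 and 7.23 against 7.75 and 7.87 (log2 fold change -0.53 ± 0.18). Its arrays did not overlap between treatments.

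Signalling members lay closer to control. The transcription factor gene KLF4 read -0.51 ± 0.34, with its second probe at -0.43. ROCK1, which encodes a kinase that acts on the actin cytoskeleton, read -0.43 ± 0.46 and ROCK2 0.07 ± 0.15. SIAH1, a ubiquitin ligase gene, read -0.42 ± 0.21 on its brightest probe and -0.10, -0.25 and -0.46 on the other 3. The BMP signal transducer gene SMAD5 read -0.40 ± 0.21 and the BMP receptor gene BMPR2 0.07 ± 0.20. BTRC, an F-box protein that marks beta-catenin for destruction, read -0.37 ± 0.41, and the kinase gene JAK2 -0.34 ± 0.27. The Hippo kinase gene LATS2 read -0.29 ± 0.29 and its relative STK38L -0.06 ± 0.22. The forkhead factor FOXO1 read -0.27 ± 0.18, the focal adhesion kinase gene PTK2 -0.24 ± 0.14, the thioredoxin inhibitor gene TXNIP -0.19 ± 0.29, the mitochondrial carrier gene MTCH2 -0.14 ± 0.20, the kinase gene GSK3B -0.12 ± 0.17 and the bone transcription factor gene RUNX2 -0.05 ± 0.39. The other kept probe of PTK2 read -0.03 ± 0.15. None of these genes passed the test. At 12 h ROCK1, BTRC and JAK2 were detected on 1 of 2 treated arrays, and RUNX2 on 1 of 2 arrays of each treatment. The values of ROCK1, BTRC, JAK2 and RUNX2 therefore depend on signal near background. Without the pairing, the values with an SE here lay within about 2 of it from 0, while the SIAH1 probe at -0.46 had an SE of 0.17. With the pairing the SE was smaller for SIAH1 (0.11), KLF4 (0.18), BTRC (0.13), SMAD5 (0.15) and LATS2 (0.12). The same held for JAK2 (0.16), ROCK1 (0.20) and PTK2 (0.11). Each of these genes then lay more than 2 SE below 0, and none passed with the pairing either. The 24 and 36 h medians of the list were -0.38 and -0.27.

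**Figure D4:**
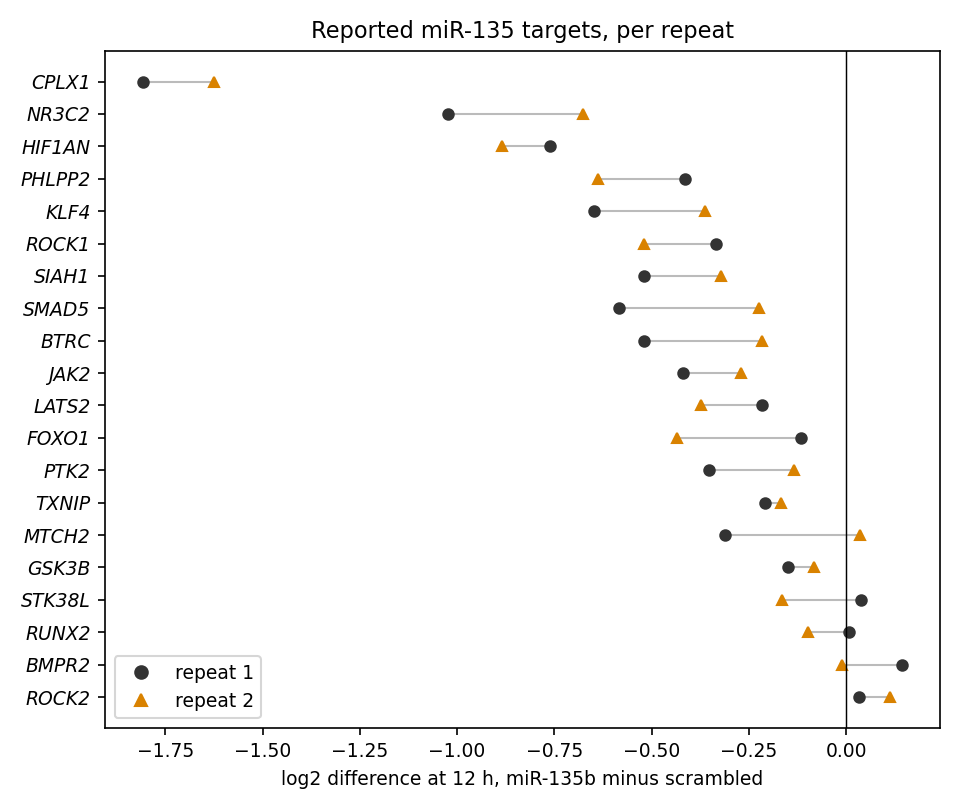
Difference between miR-135b and scrambled precursor at 12 h on the log2 scale (x axis) in repeat 1 (circles) and repeat 2 (triangles) for the 20 measured genes reported elsewhere as miR-135 targets, ordered by their mean. Both points lie below 0 for 15 genes, and CPLX1, NR3C2 and HIF1AN stand lowest.

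Of 13 measured genes that make or use microRNAs 0 passed. Their median was 0.14, and 6 of 13 had both treated arrays above both controls, against 15.4% of all genes. DICER1, which cuts the precursor hairpin, read 9.54 and 9.59 in miR-135b cells against 9.04 and 8.97 in control (log2 fold change 0.56 ± 0.20, adjusted p = 0.916), with its other probe at 0.21 ± 0.36. TARBP2, a partner of DICER1, read 0.43 ± 0.14 with its other probe at -0.01, and XPO5, which exports precursors from the nucleus, 0.28 ± 0.12. The medians at 24 and 36 h were 0.00 and 0.07. Of the Argonaute genes AGO2 read 0.35, AGO1 0.28 and AGO3 -0.35, none past the test.

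Of 29 polycomb group genes SCML2 fell and the other 28 did not pass. The list median was -0.03, and the subunits that read near 0 included EZH2 at 0.08, SUZ12 at -0.13 and RING1 at 0.01. L3MBTL1, with an MBT domain architecture related to that of SCML2, read 0.56 ± 0.21, with its other probe at 0.16. Of 16 forkhead genes FOXN3 fell and 15 did not pass, and 7 of 16 had both treated arrays below both controls, against 17.6% of all genes. Beside FOXN3 and FOXN2, FOXK1 read -0.40 ± 0.16, while the prostate pioneer factor FOXA1 read -0.03 and FOXO3 0.02. Of 26 vesicle fusion genes CPLX1 fell and 25 did not pass, with a median of -0.06 and values of -0.37 for VAMP2 and -0.28 for STX1A, both SNARE genes.

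Cell cycle and cilia genes were read at all 3 times. Of 47 G1/S and replication genes 0 passed, with a median of -0.01 at 12 h against -0.33 at 24 h and -0.49 at 36 h. DTL, a substrate receptor that targets the licensing factor CDT1, was the exception in size, at 7.18 and 7.29 against 7.90 and 8.0 (log2 fold change -0.72 ± 0.21, adjusted p = 0.838). With the pairing its SE was 0.095 and its adjusted p 0.096, so it did not pass there either. Of 43 G2/M genes 0 passed, and the medians were 0.03, -0.07 and -0.27, with the value at 24 h at 0.02 under median scaling. Of 19 motile cilia genes 0 passed at 12 h, 4 rose at 24 h, against 0.32% of all genes, and 9 at 36 h, against 0.872%. With the pairing 7 rose at 24 h, against 1.17%. The medians were 0.14, 0.42 and 0.59, and at 12 h 11 of 19 were above control in both repeats, against 28.3% of all genes. TMEM231, of the ciliary transition zone, read 7.22 and 6.95 against 6.38 and 6.57 at 12 h (log2 fold change 0.61 ± 0.15, adjusted p = 0.617). The list held 40 genes, with the others not measured, and 4 of those measured, DNAAF4, DNAAF11, ZMYND10 and DRC3, were detected on neither control array of 12 h. Of these, 3 were detected on no array of 12 h, so their 12 h values are background signal. A gene was kept if any 2 of 12 arrays detected it, and DRC3 entered through treated arrays only. The list was chosen with earlier results of these data known, so its counts and medians are a description.

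HIF1AN restrains HIF1A, so hypoxia-induced genes were read at 12 h. Of 35 measured 0 passed, with a median of 0.00. PGAM1, a glycolytic mutase gene, read 12.00 and 12.08 against 12.58 and 12.44 (log2 fold change -0.47 ± 0.15, with its other probe at -0.39). GBE1, the glycogen branching enzyme gene, read -0.49 ± 0.16 and the protein disulfide oxidase gene ERO1A -0.38 ± 0.14. PGAM1 later fell, with log2 fold changes of -0.91 at 24 h and -1.20 at 36 h. Of 30 androgen-induced genes 0 passed, with a median of -0.05. ACP3, prostatic acid phosphatase, read 7.15 and 6.80 against 7.85 and 7.24 (log2 fold change -0.57 ± 0.21, adjusted p = 0.937), lower in both repeats.

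Transfected small RNAs can set off an innate or stress response, and both arms carried one. Of 22 interferon response genes, 16 immediate early genes and 26 stress response genes 0 passed, with medians of 0.04, 0.07 and 0.01. No member of these 3 lists reached an unadjusted p under 0.05 in limma without the pairing. With the pairing KLF4, of the immediate early list, was under that limit (log2 fold change -0.51, SE 0.18), and it was not the only member. Others included OAS3 of the interferon list, at -0.47 and -0.47 in the 2 repeats, and VLDLR of the stress list, at -0.42 and -0.43. Both ranked ahead of KLF4 in the paired fit (adjusted p = 0.347 and 0.330, against 0.378). OAS3 fell at 36 h in limma without the pairing (log2 fold change -1.06, adjusted p = 0.041). ARC, named above among the lower genes, was not on the immediate early list. Since no untransfected culture was measured here, a response common to both precursors cannot be seen. Of 23 p53 target genes 0 passed, with DDB2 at 0.42 ± 0.16 and TRIAP1 at -0.37 ± 0.14, and of 19 cholesterol synthesis genes 0 passed, with NSDHL at 0.32 ± 0.14.

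**Figure D5:**
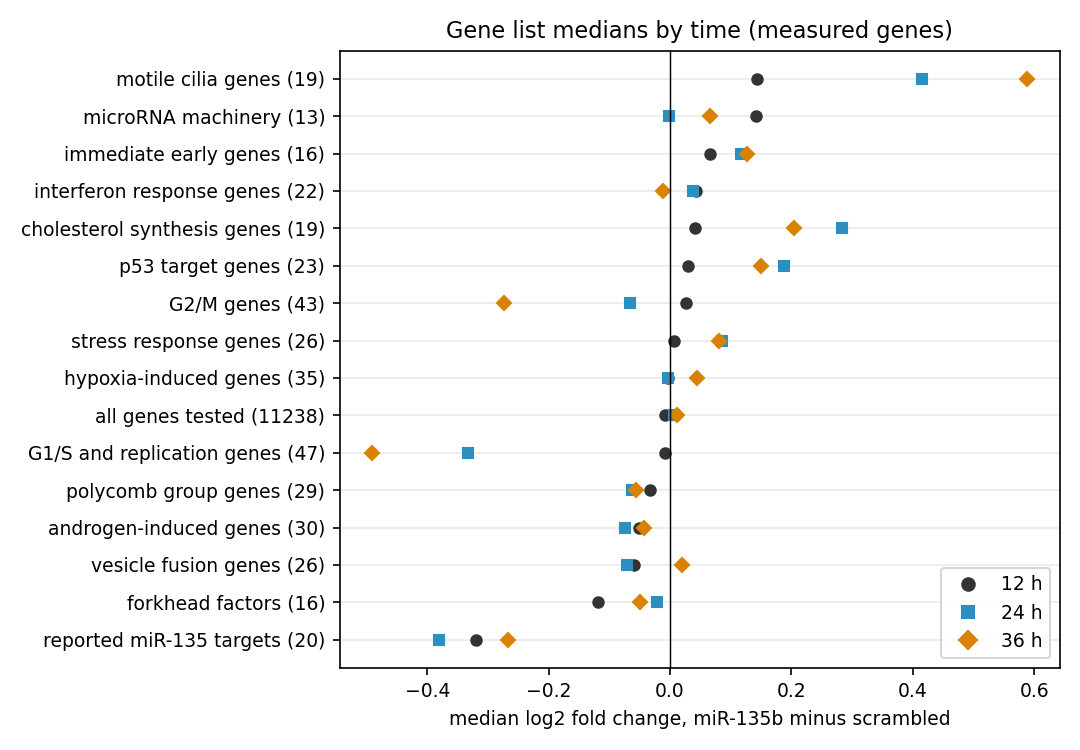
Median log2 fold change of miR-135b against scrambled precursor (x axis) at 12, 24 and 36 h for each gene list, with the number of measured genes in brackets. Reported miR-135 targets are at -0.32 at 12 h and -0.38 at 24 h, while G1/S and replication genes are at -0.01 at 12 h and -0.49 at 36 h.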

How the data were processed

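Gene expression was measured on 12 Illumina arrays. The submitters' processing notes list GenomeStudio 2010.2 and lumi 1.8.3 without their roles. Per the file headers, the deposited table of signal intensity also holds a detection p-value per probe and array. The deposited log2 values, processed by the authors, were used as an alternative. All 12 of those columns share a median of 6.736, and how they were corrected and scaled is not stated in the sources used. No build is named for the arrays.

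Intensities were corrected with normexp (limma 3.58.1, R 4.3.3) from detection p-values, with an offset of 16, then quantile normalized and put on the log2 scale. A probe was kept when 2 or more of 12 arrays detected it, at a detection p under 0.01 (19161 probes), and 11238 genes, each by its brightest probe with 1 gene name, were tested. Of 47323 probes 30113 have 1 name, 8 several and 17202 none here. The symbols were those of the current gene table. Fold changes of dim genes are shrunk by the offset.

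A model of 6 group means over all 12 arrays (6 residual degrees of freedom) gave each contrast with eBayes. Tests were two-sided with Benjamini-Hochberg adjustment over all genes and a threshold of 0.05. The test was checked on simulated data. A probe detected on no array of a group gives a fold as at least N-fold, taking for each dim array the larger of the probe's signal and the smallest signal detected on that array. Nothing says how far the repeats were separate beyond the word biological, and the number of arrays limits precision.

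Deviations of treated and control arrays of equal number correlated at 0.465, 0.456 and 0.584 at 12, 24 and 36 h, all above 0.1, so the numbers were taken to pair arrays within a time. The paired fit has 3 residual degrees of freedom.

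Named genes are those passing at 12 h with or without the pairing, the 15 lowest and 10 highest by the criteria in the text, all reported targets, up to 3 members of each other list at an unadjusted p under 0.05, and the 8 largest later falls and rises. Genes named beside these as near 0, or for their family, were chosen after their values were seen. The 20 lists and this rule were chosen with earlier results of these data known.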

Additional observations from a re-analysis of the deposited data

How the results depend on the processing

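At 12 h the main analysis gave 1 rise and 3 falls. The authors' processed values and no background correction gave 2 rises and 7 falls each, an offset of 50 gave 2 and 5, and no detection filter gave 1 and 1. All 4 genes passed in the first 3 of these settings, and C12orf76 and FOXN3 without the filter. Median scaling gave 0 and 0, as did the 4 arrays of 12 h alone and each fit without 1 of them (0 to 0). Pairing as a replicate block gave 1 rise and 4 falls, with PPP1R12B added, and 50.0% and 38.5% in place of 65.9% and 60.2% for later falls and rises already apart at 12 h. It changed no other call at 12 h among the named genes, and at 24 h it raised falls among the 15 named lower genes from 7 to 12. Those shares were 76.5% to 82.5% and 69.4% to 76.9% without 1 array of 12 h, when 33.0% to 36.7% of all genes lie below and 30.8% to 32.9% above by construction, and the share of falls was 75.9% with median scaling. The median of reported targets was -0.18 on the authors' values and without background correction and -0.22 with an offset of 50. Counts of genes lower and higher by 0.5 in both repeats, 87 and 45, became 28 and 6 on the authors' values, 29 and 6 without background correction, 43 and 9 with an offset of 50, and 60 and 23 for genes detected on all 12 arrays. These counts, and later calls from 8 arrays alone, were chosen after seeing the data. Some uncalled genes near 0 changed sign: ROCK2 read -0.018 on the mean of its probes, and without 1 array of 12 h the range was -0.42 to 0.33 for RUNX2, -0.92 to 0.067 for ROCK1, -0.36 to 0.079 for MTCH2, -0.14 to 0.0088 for STK38L, -0.72 to 0.13 for LATS2, -0.52 to 0.15 for TXNIP, -0.20 to 0.33 for BMPR2, -0.24 to 0.081 for AKR1C2 and -0.13 to 0.88 for DRC3. The causes were not tested. Of 840 values of named genes under alternatives, 785 kept sign and side of the threshold. Only 4 of the 66 named genes passed at 12 h in the main fit. That count is therefore mostly of uncalled genes that stayed uncalled, and it says little about the 4 calls. Signal near background in one group limits the values of CPLX1, PPP1R12B, KIAA1549, SPOPL, TGM1, MAGEA9B, SNORD73A and DRC3. It also limits those of ROCK1, BTRC and JAK2, and for RUNX2 it does so in both groups.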
